A study of Drosophila melanogaster with 6 samples.

Results

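The ecdysone receptor and the transcription factors that respond early to the hormone were followed through 10 genes, chosen by symbol from the 11621 genes of the count table. They are EcR and usp, which encode the receptor, br, Eip74EF and Eip75B, known as early genes, Eip78C, Hr39 and Hr46, known as early-late genes, and ftz-f1, which acts between hormone pulses, with Blimp-1, its repressor. All 10 were found, each in a row of its own, and all 10 passed the filter on low counts that left 10074 genes for testing. RNA was sequenced from cuticles, the body wall of the larva with its epidermis and skeletal muscles, pooled from several animals per sample. The 3 samples of tumour-bearing larvae were taken 10 days after egg laying and the 3 control samples 7 days after it. Tumour-bearing larvae had the chromosomes y, w, ey-flp, then act5C>y+>GFP opposite UAS-RasV12, then FRT82B, tub-gal80 opposite FRT82B, scrib1, so that clones with RasV12 and mutant for scrib1 arose where the eyeless promoter drives the flippase, in the eye discs. The controls were w1118 larvae and carried none of these transgenes. The labels give 25 °C for the controls and no separate temperature for the tumour-bearing larvae, so a difference in rearing temperature is possible. Age, genetic background, any such difference and tumour therefore cannot be told apart in these samples, and each sample has a lane number of its own in the table header. The labels do not say whether the samples of a group came from separate cultures, so that p-values measure only the spread between these samples.

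Ecdysone is the steroid hormone that times moulting and metamorphosis in insects. It binds a pair of nuclear receptors, EcR and Usp, and the bound pair turns on a small set of early regulators, which in turn control later genes. In Drosophila prepupae Hr46, also called Hr3, activates ftz-f1 as the hormone level falls, whereas the Eip75B protein binds Hr46 and inhibits it, and Blimp-1 represses ftz-f1. The levels of these genes therefore differ strongly between a hormone pulse and the interval after it, also in the epidermis and muscle of the body wall.

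Sequencing gave 62617114 to 77801818 counts per sample in tumour-bearing larvae and 69920428 to 84149121 in controls. The 20 most abundant genes took 10.8% to 11.6% of the counts in the tumour-bearing samples and 25.9% to 35.9% in the control samples, and the TMM scaling factors, which correct for this, were 1.33 to 1.44 in tumour-bearing and 0.630 to 0.841 in control samples. Levels below are normalized counts, scaled so that each library has the mean size after TMM. With total counts alone in place of TMM, the log2 fold changes of all genes moved up by a median of 0.93 and the calls were 6189 higher and 695 lower, against 2393 and 2320 with TMM, so that each direction is relative to TMM. Control replicate 3 stood apart from the other control samples. The correlation of log2 CPM across all tested genes, which are not independent, was 0.975 to 0.986 within the tumour-bearing samples and 0.983 between control replicates 1 and 2, but 0.953 and 0.935 between control replicate 3 and these. Each result is therefore given by sample, and with and without control replicate 3 where this matters.

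In tumour-bearing larvae, EcR, br, Eip74EF and Hr39 fell and ftz-f1 rose, while usp, Eip75B, Eip78C, Hr46 and Blimp-1 did not pass the test. The largest change past the threshold was that of br, which was 12-fold lower. Of the 10 genes, 5 passed, 1 higher and 4 lower, at an adjusted p under 0.05 in the quasi-likelihood test of edgeR. Over all 10074 genes tested, 46.8% passed, 23.8% higher and 23% lower, so that the share of these genes that passed was close to that of all genes. Their median log2 fold change was -1.13, against 0.01 for all genes. This median includes control replicate 3 and was not computed without it. When that sample was left out, Eip78C moved from -7.28 to 1.33 and Eip75B from -0.81 to -0.22. EcR stayed at -1.02, while usp (0.12 to 0.08) and ftz-f1 (1.71 to 1.43) moved down. The values of the tumour-bearing and control samples did not overlap for 6 of the 10 genes, against 61.6% of all genes. They were higher in tumour-bearing larvae for 2 genes (31.9% of all genes) and lower for 4 (29.7% of all genes).

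**Figure D1:**
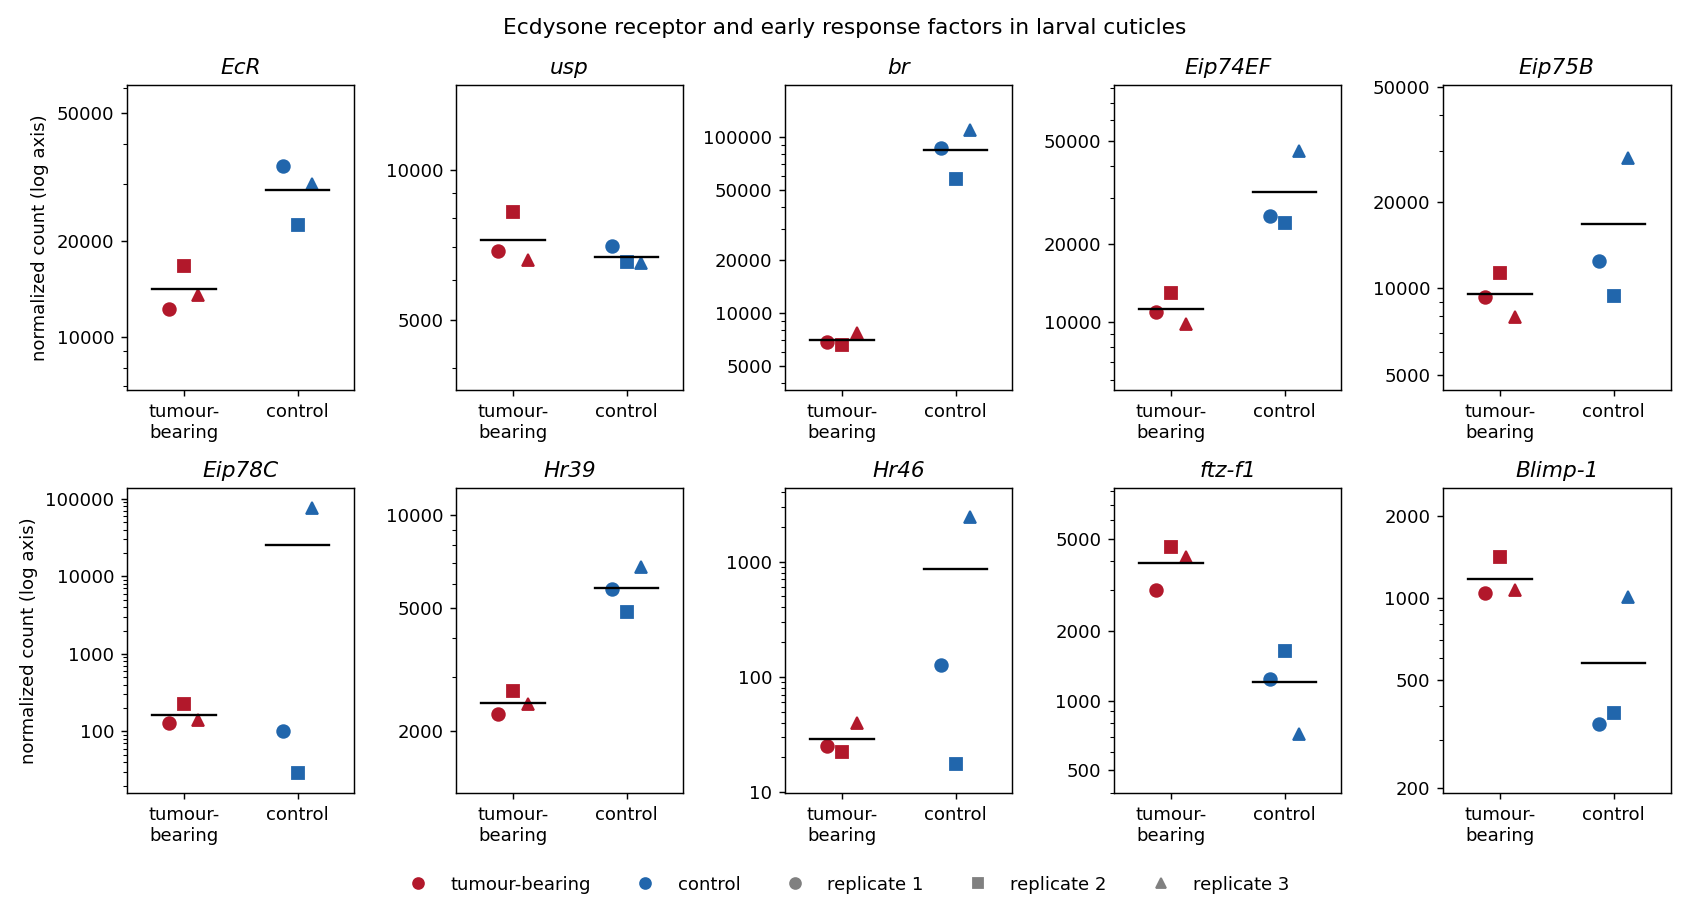
Normalized counts (log axis, a different range in each panel) of the 10 genes in the 3 tumour-bearing samples (red) and the 3 control samples (blue). Marker shape gives the replicate number, which is not taken here as a pairing of samples, and the line is the group mean. In EcR, br, Eip74EF, Hr39, ftz-f1 and Blimp-1 the groups do not overlap, and in Eip78C and Hr46 control replicate 3 lies far above every other sample.

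The receptor genes differed from each other. EcR, the ecdysone-binding subunit (chromosome 2R, 6087873 to 6169087, minus strand, 6 annotated transcripts, BDGP6), had 12242, 16620 and 13475 normalized counts in the tumour-bearing samples, against 34118, 22371 and 30087 in the control samples. Every tumour-bearing sample thus lay below every control sample. EcR fell 2.04-fold (log2 fold change -1.03 with an SE of 0.21, edgeR adjusted p = 0.0108), and the value was -1.02 without control replicate 3. The call was lost with total counts (log2 fold change -0.12, adjusted p = 0.692), where EcR was nevertheless 1.06 below the median of all genes on the log2 scale.

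The partner of EcR, usp, the fly homologue of the vertebrate retinoid X receptor, did not pass the test. It had 6885, 8247 and 6604 normalized counts in the tumour-bearing samples, against 7045, 6520 and 6487 in the control samples (chromosome X, 2038798 to 2042311, minus strand). The groups overlapped, and control replicate 3 was like the others. The log2 fold change was 0.12 (95% interval -0.18 to 0.42, edgeR adjusted p = 0.464). With total counts usp passed as higher (log2 fold change 1.05, adjusted p = 0.00157), by about as much as the median of all genes moved. Of the exon bases of usp, 8.72% are shared with 2 other genes, one of them the muscle gene Actn on the same strand, which had 21586 to 27813 normalized counts in the tumour-bearing samples and 67247 to 250354 in the control samples. How the counting treated the shared bases is not given in the sources used here, and its part in the value of usp was not tested.

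In bulk tissue, fewer cells of a type and less RNA per cell cannot be told apart. For reference, 23.8% of the tested genes rose and 23% fell. Of 15 muscle markers 9 were lower, and their share of all counts was 2.17% to 3.12% in the tumour-bearing samples and 3.91% to 11.4% in the control samples, lowest among the controls in replicate 3. Of 17 epidermal and cuticle markers 10 were lower, with shares of 0.264% to 0.314% in the tumour-bearing samples and 12.1% to 15.8% in the control samples. Most of this share came from the cuticle protein genes Lcp1, Lcp2, Lcp3 and Lcp4. Without them, a split made after their values were seen, it was 0.183% to 0.198% in the tumour-bearing samples. In control replicates 1, 2 and 3 it was 0.360%, 0.299% and 1.52%. In replicate 3 the marker ple alone had 1010695 normalized counts, against a mean of 637 in the other controls. The epidermal regulators grh and vvl were among the 7 epidermal and cuticle markers that did not pass. Their log2 fold changes were -0.39 and -0.06, against a median of -2.62 for that list. Neither gene was picked by the rule for named genes given below. Of 10 haemocyte markers 8 were higher (0.225% to 0.579% in the tumour-bearing samples, against 0.0473% to 0.0793% in the controls). Of 8 fat body markers 1 was higher, the collagen gene Cg25C, at 0.0786% to 0.163% in the tumour-bearing samples and 0.00829% to 0.0118% in the controls. The other 7, of which 2 were lower, together took 0.00297% to 0.0262% in the tumour-bearing samples and 0.0101% to 0.0231% in the controls. No marker in the table was at 0 in all samples, and the muscle marker Mhc was not analysed here. Of the markers of other cell types, 2 of 9 rose and 3 fell for the salivary gland, 2 of 7 rose for neurons and glia, 3 of 6 fell for the trachea, and 1 of 10 rose and 1 fell for imaginal discs. The part of these shares in the values of the receptor and response genes was not tested.

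Of the early genes, br changed most. It encodes the Broad zinc finger proteins, which specify the pupal fate of the epidermis (chromosome X, 1575132 to 1664869, plus strand, 16 annotated transcripts). It had 6887, 6563 and 7737 normalized counts in the tumour-bearing samples, against 86570, 57683 and 110067 in the control samples. The tumour-bearing samples lay within a 1.18-fold range, while the controls spread over a 1.91-fold range, with replicate 3 highest. The log2 fold change was -3.59 (SE 0.28, edgeR adjusted p = 0.000771), and it was past the threshold in all 14 alternatives tried, from -3.80 to -2.69.

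Eip74EF, which encodes an ETS-domain transcription factor (chromosome 3L, 17558672 to 17619325, minus strand), had 10956, 12897 and 9840 normalized counts in the tumour-bearing samples, against 25618, 24060 and 45573 in the control samples. The groups did not overlap, and control replicate 3 was well above the other controls. Eip74EF fell 2.83-fold (log2 fold change -1.50 with an SE of 0.29, edgeR adjusted p = 0.00875). Without control replicate 3 the value was -1.17 and the call held (adjusted p = 0.00185), whereas with total counts it was lost (-0.62, adjusted p = 0.168). Relative to the median of all genes, Eip74EF was nevertheless at -1.56 with total counts.

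The nuclear receptor gene Eip75B, whose product carries haem and inhibits Hr46, had 9343, 11279 and 7979 normalized counts in the tumour-bearing samples, against 12468, 9375 and 28252 in the control samples (chromosome 3L, 17950953 to 18064696, minus strand). Control replicate 3 was alone at the high end, and control replicate 2 lay among the tumour-bearing samples. The log2 fold change of -0.81 did not pass (95% interval -1.87 to 0.25, edgeR adjusted p = 0.169). It was -0.22 without control replicate 3 and 0.04 with total counts.

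Among the early-late genes, Hr39 fell, and the other 2 were set by a single control sample. Hr39 encodes a nuclear receptor related to that of ftz-f1 (chromosome 2L, 21237250 to 21259675, plus strand). It had 2272, 2693 and 2445 normalized counts in the tumour-bearing samples, against 5783, 4861 and 6822 in the control samples. The groups did not overlap and each was narrow, with ranges of 1.19-fold in the tumour-bearing samples and 1.40-fold in the control samples. Hr39 fell 2.36-fold (log2 fold change -1.24 with an SE of 0.15, edgeR adjusted p = 0.00221). The call held without control replicate 3 (-1.13) and was lost with total counts (-0.33, adjusted p = 0.251). Relative to the median of all genes, Hr39 was nevertheless at -1.27 with total counts.

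Eip78C, which encodes a nuclear receptor related to that of Eip75B, was nearly silent in 5 of the 6 samples (chromosome 3L, 21226609 to 21266503, plus strand). It had 181, 247 and 182 raw counts in the tumour-bearing samples, against 65, 18 and 71186 in the control samples. In normalized counts these are 127, 227 and 141 in the tumour-bearing samples, against 99.9, 28.9 and 76797 in the control samples. The tumour-bearing samples were thus slightly above control replicates 1 and 2 and far below control replicate 3. With all samples the log2 fold change was -7.28 (SE 3.0, 95% interval -14.63 to 0.07, edgeR adjusted p = 0.0929). Without control replicate 3 its sign turned, to 1.33 (SE 0.59, adjusted p = 0.109), so that no direction between tumour-bearing and control larvae can be given.

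Hr46 showed the same form at lower levels. It had 36, 24 and 51 raw counts in the tumour-bearing samples, against 82, 11 and 2241 in the control samples, or 25.3, 22 and 39.5 normalized counts in the tumour-bearing samples, against 126, 17.6 and 2418 in the control samples. Control replicate 2 was below all tumour-bearing samples and control replicate 3 was far above them. The log2 fold change of -4.88 did not pass (SE 1.75, edgeR adjusted p = 0.0640). It was -1.33 (adjusted p = 0.211) without control replicate 3, and it passed without control replicate 2 (-5.44, adjusted p = 0.0247) and with DESeq2 (-4.89, adjusted p = 0.000456). Of the exon bases of Hr46 (chromosome 2R, 10203995 to 10237348, minus strand, named Hr3 in the annotation), 82.7% are shared with 3 other annotated genes on the same strand. One of these, CG12912, is in the table, with 21.1 to 42.7 normalized counts in the tumour-bearing samples and 4.81 to 21.6 in the control samples. Counts of Hr46 can be too low where shared bases were not assigned, so its level is uncertain.

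Of ftz-f1, expressed after a pulse, and its repressor Blimp-1, ftz-f1 rose and Blimp-1 did not pass. The nuclear receptor gene ftz-f1, a competence factor for the responses to the next pulse (chromosome 3L, 18750607 to 18801309, minus strand), had 3013, 4593 and 4144 normalized counts in the tumour-bearing samples, against 1244, 1633 and 718 in the control samples. The groups did not overlap, and control replicate 3 was the lowest of all samples. It rose 3.27-fold (log2 fold change 1.71 with an SE of 0.33, edgeR adjusted p = 0.00914), and was past the threshold in all 14 alternatives, from 1.43 without control replicate 3 to 2.69 with total counts. A non-coding gene of the same strand shares 29.4% of the exon bases of ftz-f1.

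Blimp-1 encodes a zinc finger repressor that is induced by ecdysone and represses ftz-f1 (chromosome 3L, 5630983 to 5652094, plus strand). It had 1043, 1404 and 1066 normalized counts in the tumour-bearing samples, against 344, 377 and 1008 in the control samples. Control replicate 3 came close to the tumour-bearing samples without reaching them, while the other controls were lower by a wide margin. The log2 fold change of 1.02 did not pass (95% interval -0.08 to 2.12, edgeR adjusted p = 0.108). Without control replicate 3 it was 1.68 and passed (SE 0.18, adjusted p = 0.000833), as it did with total counts (1.87, adjusted p = 0.0217). Relative to the median of all genes, however, Blimp-1 was at 0.93 with total counts and at 1.01 with TMM.

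**Figure D2:**
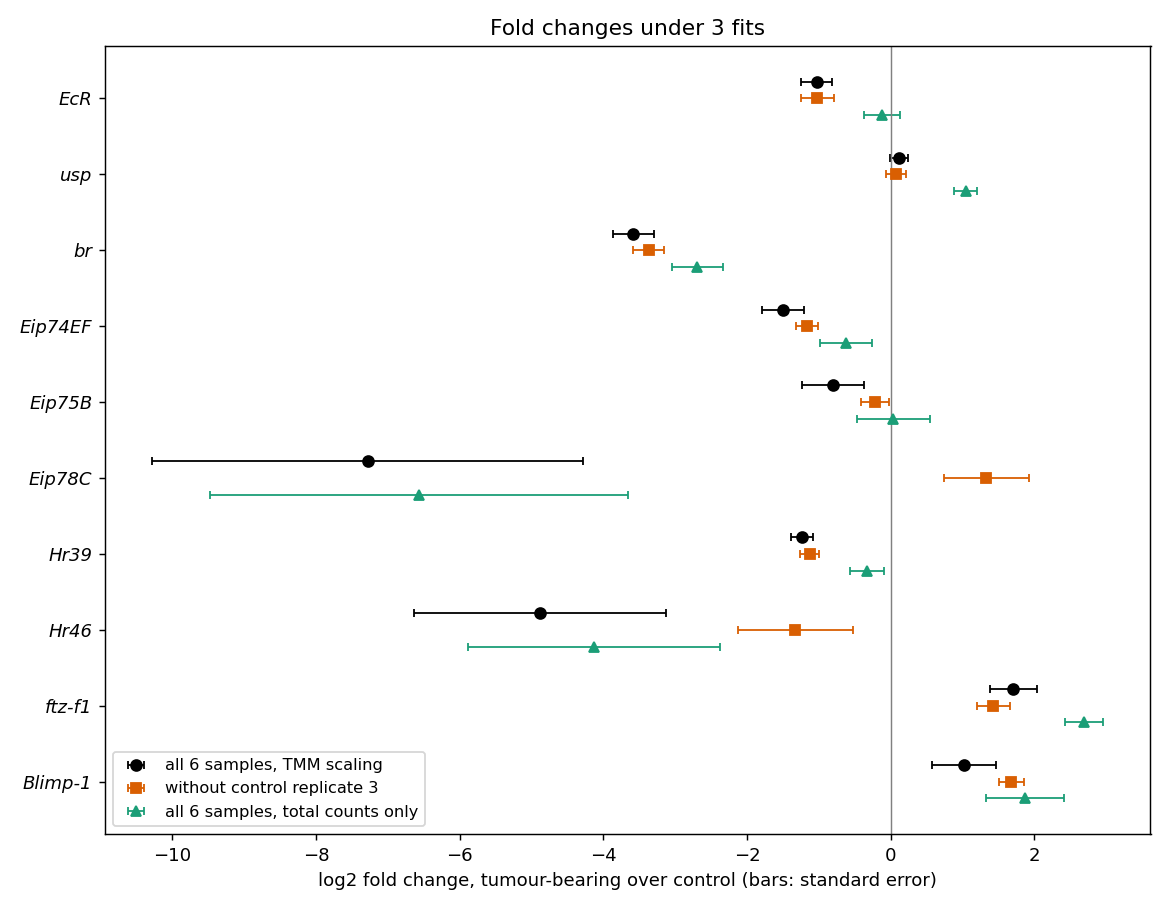
Log2 fold changes of the 10 genes, tumour-bearing over control, with their standard errors, from all 6 samples with TMM scaling (black circles), without control replicate 3 (orange squares) and with total counts only (green triangles). br lies between -3.59 and -2.69 and ftz-f1 between 1.43 and 2.69, Eip78C is at -7.28 with all samples and at 1.33 without control replicate 3, and total counts move each gene to the right.

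Control replicate 3 differed at least 2-fold from the mean of the other controls in some of the response genes. Relative to the mean of control replicates 1 and 2, and with 1 added to each normalized count, control replicate 3 held 1174-fold more Eip78C, 33.2-fold more Hr46, 2.79-fold more Blimp-1 and 2.59-fold more Eip75B. Smaller increases were seen in Eip74EF (1.83-fold), br (1.53-fold) and Hr39 (1.28-fold), whereas EcR (1.07-fold) and usp (0.956-fold) were close to equal and ftz-f1 was at 0.50-fold. Thus 7 of the 10 genes were higher in control replicate 3 than in both other controls, against 39.2% of all genes tested, and 4 were at least 2-fold above their mean, against 10.6%. Below both other controls were usp and ftz-f1 (39.3% of all genes), and ftz-f1 alone was at least 2-fold below their mean (8.71%). In 6 of the 10 control replicate 3 was the highest of all 6 samples, against 21.4% of all genes. With total counts 9 of the 10 were above both, against 66.4% of all genes. This compares 1 sample with 2 others, and no test was made.

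By the size of this difference Eip78C ranked 8 and Hr46 ranked 46 among the 10074 genes. The genes above Eip78C included ple and e, which encode enzymes of cuticle tanning and pigmentation and are named here after their values were seen. For ple, one of the epidermal markers above, which encodes tyrosine hydroxylase, control replicate 3 had 1010695 normalized counts, against a mean of 637 in the other controls, and for e, the beta-alanyl-dopamine synthase, 217174 against 7.88. The tumour-bearing samples averaged 7328 for ple and 415 for e.

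**Figure D3:**
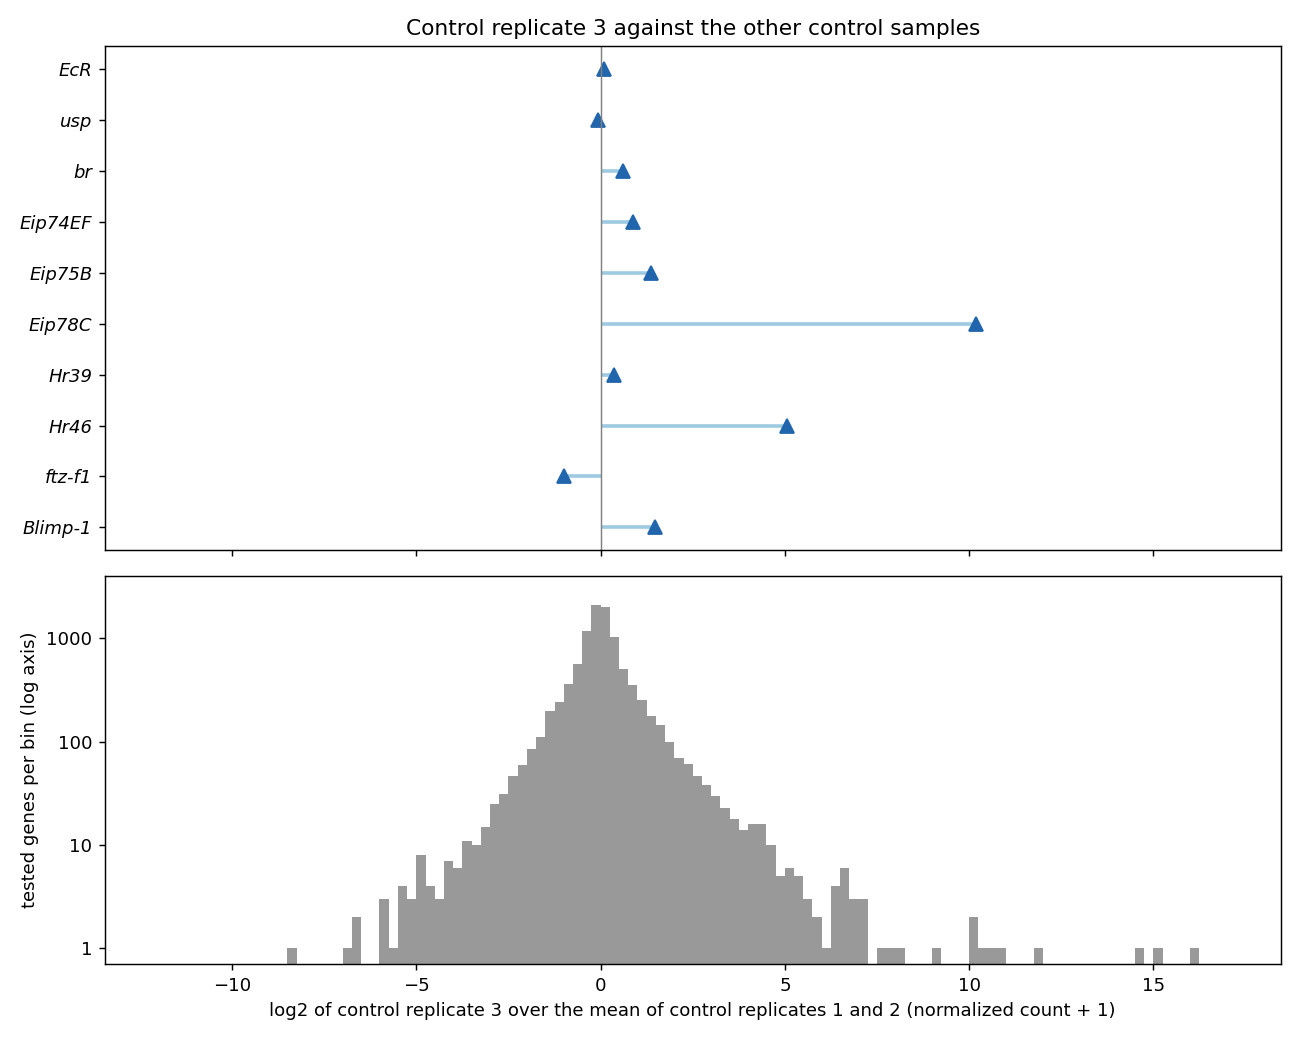
Top, log2 ratio of control replicate 3 over the mean of control replicates 1 and 2 (normalized count + 1) for the 10 genes; bottom, the same ratio over the 10074 tested genes, as genes per bin on a log axis. Eip78C (10.20) and Hr46 (5.05) lie at the far right of all genes, EcR and usp lie near 0, and ftz-f1 is the gene farthest to the left.

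The tumour-bearing samples showed no such spread. The highest sample exceeded the lowest by 1.18-fold to 1.79-fold across the 10 genes, against a median of 1.24-fold over all tested genes without a 0. In the controls the range ran from 1.09-fold for usp to 137-fold for Hr46 and 2662-fold for Eip78C, against a median of 1.43-fold. Between control replicates 1 and 2 alone it was 1.06-fold to 1.53-fold for EcR, usp, br, Eip74EF, Eip75B, Hr39, ftz-f1 and Blimp-1, 3.46-fold for Eip78C and 7.15-fold for Hr46, where one of the samples had 18 and 11 counts. For these 8 genes control replicates 1 and 2 thus lay within 1.53-fold of each other, against a median of 1.20-fold over all tested genes without a 0. For EcR, br, Eip74EF, Hr39, ftz-f1 and Blimp-1 the tumour-bearing samples were outside the range of all 3 controls.

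Ratios of these genes within a sample do not depend on how libraries are scaled, and 5 were compared. With 3 samples in each group the exact two-sided permutation test cannot give a p below 0.1, so none could pass. The ratio of EcR to usp counts was 1.78, 2.02 and 2.04 in the tumour-bearing samples, against 4.84, 3.43 and 4.64 in the control samples. The RNA counts of EcR and usp thus differed in proportion between the groups without overlap, by -1.13 on the log2 scale (exact permutation p = 0.1, adjusted over 5 ratios 0.167). The difference was -1.07 without control replicate 3. Receptor protein was not measured, and the exon bases that usp shares with Actn may enter this ratio. The ratio of Eip74EF to Eip75B was 1.17, 1.14 and 1.23 in the tumour-bearing samples, against 2.05, 2.57 and 1.61 in the control samples, a difference of -0.79 with the same p-values.

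The other ratios were ruled by control replicate 3 or by few counts. For each count of Hr46 there were 119, 208 and 105 counts of ftz-f1 in the tumour-bearing samples, against 9.87, 92.6 and 0.297 in the control samples. The count of ftz-f1 was thus below that of Hr46 only in control replicate 3. Exon bases shared with other genes, 82.7% for Hr46 and 29.4% for ftz-f1, may enter this ratio. The difference was 4.41 on the log2 scale (exact permutation p = 0.1, adjusted 0.167), or 2.18 without control replicate 3 and 6.33 without control replicate 2. The ratio of ftz-f1 to its repressor Blimp-1 was 2.89, 3.27 and 3.89 in the tumour-bearing samples, against 3.61, 4.34 and 0.713 in the control samples. Here the groups overlapped, and the difference of 0.57 (exact permutation p = 0.9) turned to -0.25 without control replicate 3. The ratio of Hr46 to Eip75B was 0.00271, 0.00195 and 0.00496 in the tumour-bearing samples, against 0.0101, 0.00188 and 0.0856 in the control samples. These groups overlapped too, with a difference of -1.98 (exact permutation p = 0.4) that was -0.55 without control replicate 3 and -3.31 without control replicate 2.

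**Figure D4:**
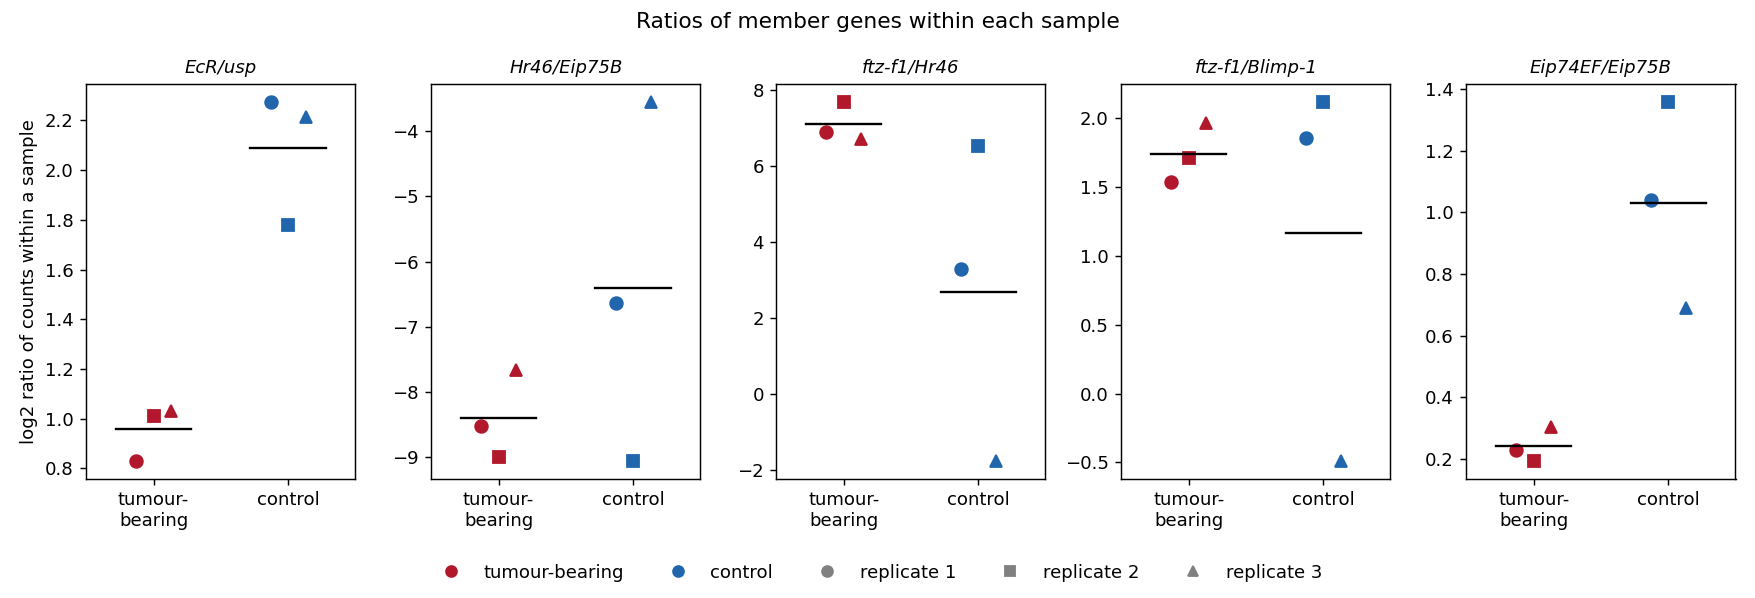
Log2 ratios of the counts of 2 genes within each sample, in the 3 tumour-bearing samples (red) and the 3 control samples (blue), with the mean as a line and a different range in each panel. EcR over usp and Eip74EF over Eip75B are lower in all tumour-bearing samples than in all controls, and control replicate 3 (blue triangle) is at an end of the controls in the panels with Hr46 or Blimp-1.

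Levels of different genes were compared per kilobase of annotated exon, as CPM per kb with TMM-scaled library sizes. In the tumour-bearing samples usp stood highest, at 31.3 ± 3.79 (SD, n = 3), followed by EcR at 18.6 ± 2.98, Eip74EF at 15.8 ± 2.17, Eip75B at 9.30 ± 1.62, Hr39 at 6.50 ± 0.558, ftz-f1 at 5.99 ± 1.24 and br at 4.59 ± 0.394. Blimp-1 (1.82 ± 0.314), Eip78C (0.369 ± 0.120) and Hr46 (0.0363 ± 0.0117) came last. In this order EcR and Eip74EF overlapped, as did Hr39 and ftz-f1, and ftz-f1 and br, while the other neighbours did not.

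In the control samples br, at 55.0 ± 17 (SD, n = 3), Eip74EF at 44.6 ± 16.9 and EcR at 38.1 ± 7.88 stood above usp at 28.9 ± 1.35, with overlap between neighbours in this order. Next came Eip75B at 16.3 ± 9.87 and Hr39 at 15.3 ± 2.58, which overlapped each other, and then ftz-f1 at 1.83 ± 0.702, Hr46 at 1.07 ± 1.70 and Blimp-1 at 0.893 ± 0.580, each overlapping the next. Eip78C had 0.223 and 0.0644 in control replicates 1 and 2 and 171 in control replicate 3, where it exceeded all 9 others. The places of br, Eip74EF and EcR relative to usp differed between the groups. The level of each was below that of usp in every tumour-bearing sample and above it in every control sample. Exons of all transcripts were joined for these lengths, so that a gene read mostly from short transcripts is placed too low. Hr46 can be placed too low in both groups as well, since 82.7% of its exon bases are shared with other genes.

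**Figure D5:**
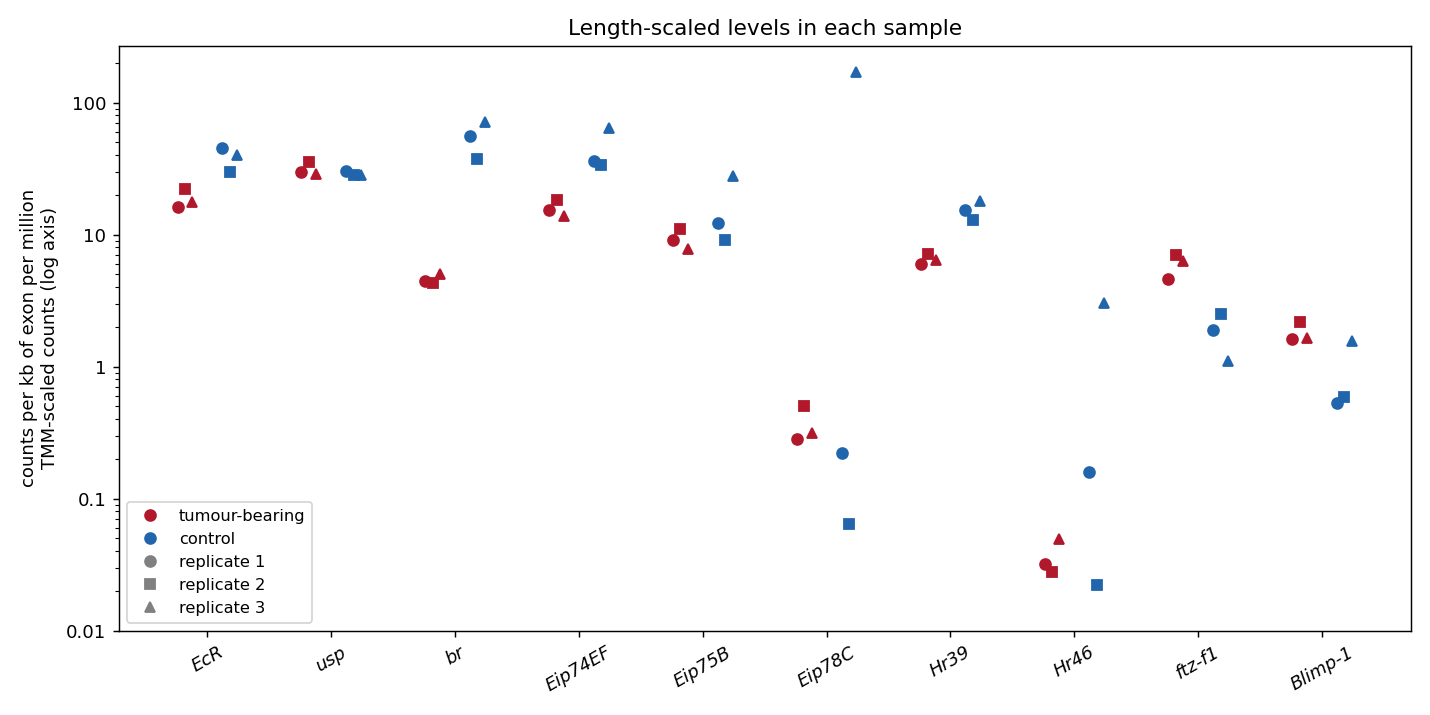
Levels of the 10 genes as CPM per kb of exon with TMM scaling (log axis), tumour-bearing samples in red left of control samples in blue, with marker shape for the replicate. br averages 4.59 in the tumour-bearing and 55.0 in the control samples, the values of usp overlap, and Eip78C spans 0.0644 to 171 among the controls.

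The genes whose log2 CPM over the 6 samples was most like that of each gene past the test were then listed, with Pearson's r as a description, since all 6 points share the group difference and the scaling. For EcR these were CG9527, sina, which encodes a ubiquitin ligase, and CG15385 (r of 0.995, 0.995 and 0.994). For br they were CG14855, the HMG-box gene HmgZ and CG9914 (0.999, 0.998 and 0.998), and 93 genes in all had an r above 0.99. For Eip74EF they were Spn100A, CG10171 and mats (each 0.997), and for Hr39 the Hox gene abd-A, Samuel and CG34349 (each 0.997). Genes with an r above 0.99 numbered 9 for EcR, 8 for Eip74EF, 40 for Hr39 and 23 for ftz-f1. Spn100A was near the floor in the tumour-bearing samples (0.704, 7.35 and 0 normalized counts), against 349, 196 and 15360 in the control samples. The level of abd-A was 6503 to 9702 normalized counts in the tumour-bearing samples and 22618 to 40724 in the control samples. The genes most like ftz-f1 were aru (0.998), CG14883 (0.996) and the transglutaminase gene Tg (0.996). Eip78C did not pass the test and was looked up after its values were seen. Its nearest genes were CG34193, nmo, which encodes a kinase, and Sik3 (0.997, 0.996 and 0.993), which share the high value in control replicate 3. For Eip75B, looked up in the same way, the nearest was b (0.997), which makes beta-alanine for cuticle tanning, with 2657, 4857 and 1206 normalized counts in the tumour-bearing samples, against 6075, 2048 and 84263 in the control samples.

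Among other genes of the hormone response more fell than rose with TMM, but not with total counts, and the share past the test was near that of all genes. Of 29 further ecdysone-responsive genes listed, 26 were in the table and tested. Of these 10 fell (23% of all genes), 2 rose (23.8% of all genes) and 14 did not pass. In all 46.2% were past the test, against 46.8% of all genes, with a median log2 fold change of -0.39. Lactate dehydrogenase, listed as ImpL3, had 4169, 2019 and 3735 normalized counts in the tumour-bearing samples, against 161325, 264507 and 45600 in the control samples, and Hr38, a nuclear receptor that can also pair with Usp, had 107, 91.9 and 118 in the tumour-bearing samples, against 6596, 5089 and 1289 in the control samples. Both were lowest among the controls in replicate 3. Their log2 fold changes were -5.57 (SE 0.77, edgeR adjusted p = 0.00322) and -5.35 (SE 0.67, adjusted p = 0.00233). ImpE2, induced by ecdysone in imaginal discs, was highest in control replicate 3, with 104, 78.1 and 65.1 normalized counts in the tumour-bearing samples, against 449, 465 and 9470 in the control samples (log2 fold change -5.39, adjusted p = 0.0270). Its groups did not overlap. The value was -2.49 (adjusted p = 0.000855) without control replicate 3, and the call was lost without any 1 of the tumour-bearing samples (adjusted p of 0.0828 to 0.0958). The genes that rose were rdgB (log2 fold change 0.80, adjusted p = 0.0154) and the urate oxidase gene Uro, known from the Malpighian tubules, with 134, 20.2 and 382 normalized counts in the tumour-bearing samples, against 0, 0 and 2.16 in the control samples. In 13 of the 26 genes control replicate 3 was above both other controls, against 39.2% of all genes. Without control replicate 3, 6 genes of the list rose (all genes, 2590 of 10305). With total counts 9 rose and 6 fell (all genes, 6189 and 695 of 10074). Without tumour-bearing replicate 1 or 2, 6 fell (all genes, 1619 of 10253 and 1380 of 10263).

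Genes of the cofactors that the receptor recruits or depends on mostly did not pass. Of 21 tested, 3 rose and 2 fell (23.8% past the test, against 46.8% of all genes), with a median log2 fold change of 0.07. Those that rose were Chd64 (log2 fold change 0.96, edgeR adjusted p = 0.0386), rig (0.85, adjusted p = 0.00327) and the chromatin remodeller gene Iswi (0.48, adjusted p = 0.0150), and those that fell were bon (-0.64, adjusted p = 0.0322) and mor (-0.36, adjusted p = 0.0193). The coactivator gene tai, a partner of EcR, had 10537, 15458 and 12138 normalized counts in the tumour-bearing samples, against 12472, 12536 and 18039 in the control samples, and did not pass (adjusted p = 0.544). With total counts 19 rose (all genes, 6189 of 10074), among them mor (0.57, adjusted p = 0.0211), and bon was at 0.27. With upper-quartile factors 6 rose (all genes, 2860 of 10074), and the calls of bon and mor were lost. These were also lost without control replicate 1 or any 1 of the tumour-bearing samples. The count that rose was 1 without control replicate 1 or tumour-bearing replicate 1 or 3 (all genes, 1762 of 10358, 1826 of 10253 and 1886 of 10181). Without control replicate 3, 5 fell (all genes, 2548 of 10305).

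Of 15 tested genes of ecdysteroid synthesis, turnover and import, 2 rose and 2 fell (26.7% past the test, against 46.8% of all genes), with a median log2 fold change of -0.07. Eo, listed as an ecdysone oxidase that inactivates the hormone, had 25.3, 8.27 and 27.9 normalized counts in the tumour-bearing samples, against 297, 83.3 and 692 in the control samples (log2 fold change -4.11 with an SE of 0.91, edgeR adjusted p = 0.0143), with replicate 3 highest. The steroid enzyme gene sro fell as well (-2.44, adjusted p = 0.000607), whereas the importer gene Oatp74D (1.60, adjusted p = 0.00708) and the sterol carrier gene Npc2a (1.36, adjusted p = 0.00946) rose. With total counts 7 of these genes rose (all genes, 6189 of 10074), and without tumour-bearing replicate 2 the call of Eo was lost (adjusted p = 0.0509).

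Among 9 other nuclear receptor genes tested, Hr38 (above) and Hr78 fell, knrl and ERR rose, and 5 did not pass (44.4% past the test, against 46.8% of all genes). Hr78 had 4058, 3697 and 3528 normalized counts in the tumour-bearing samples, against 9630, 7849 and 9846 in the control samples (log2 fold change -1.28 with an SE of 0.13, edgeR adjusted p = 0.00129). This is about the change of EcR and Hr39, and the groups did not overlap. The values of knrl were 770, 1167 and 1127 in the tumour-bearing samples, against 291, 353 and 353 in the control samples (log2 fold change 1.62, adjusted p = 0.00210). ERR, a regulator of carbohydrate metabolism in larvae, rose slightly (0.32, adjusted p = 0.0311), and Hnf4, a regulator of fat use, did not pass (0.04, adjusted p = 0.802). With total counts 5 of the 9 rose and 1 fell (all genes, 6189 and 695 of 10074), with Hr78 at -0.36 (adjusted p = 0.165). The call of ERR was lost without control replicate 1 or 2 or tumour-bearing replicate 1 or 2.

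Ecdysis is the shedding of the old cuticle, and juvenile hormone is the other main hormone of the moult cycle. Of 7 ecdysis genes 2 rose and 5 did not pass (28.6% past the test, against 46.8% of all genes). With DESeq2 4 were higher and 3 lower, where 54.9% of all genes passed (2681 higher and 2800 lower of 10074). The ecdysis-triggering hormone gene ETH had 276, 249 and 271 normalized counts in the tumour-bearing samples, against 72.3, 41.7 and 90.6 in the control samples (log2 fold change 1.95 with an SE of 0.33, edgeR adjusted p = 0.00566). The neuropeptide gene AstA also rose (3.51, adjusted p = 0.0278). With total counts 4 rose (all genes, 6189 of 10074). The call of AstA was lost without control replicate 1 or 2 or tumour-bearing replicate 3, and 2 genes fell without control replicate 2 (all genes, 2217 of 10361). Of 9 juvenile hormone genes, Met, which encodes a receptor of the hormone, rose (0.47, adjusted p = 0.0397), and 8 did not pass (11.1% past the test, against 46.8% of all genes). Kr-h1, a target of both hormones, had 4744, 7610 and 5954 normalized counts in the tumour-bearing samples, against 6220, 4945 and 11709 in the control samples, again with replicate 3 highest, and did not pass (adjusted p = 0.491). The call of Met was lost without any 1 of the control samples and without tumour-bearing replicate 1 or 2 (adjusted p of 0.0508 to 0.0911). With total counts 6 of these genes rose (all genes, 6189 of 10074), and without control replicate 3, 3 fell (all genes, 2548 of 10305).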

How the data were processed

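RNA-seq counts of larval cuticles were compared between 3 tumour-bearing and 3 control samples, grouped by genotype label. The authors deposited raw read counts per gene. Tools listed without version by the submitters were TopHat, Bowtie and HTSeq, besides DESeq2, bcl2fastq and FastQC, on BDGP6. Strand is not kept by the library kit and cannot separate overlapping genes. The 6 columns of normalized values and the authors' means, fold changes and p-values in the table were not used. Depth was 62617114 to 84149121 counts per sample.

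Genes were filtered (filterByExpr), TMM-scaled and tested with the robust quasi-likelihood test of edgeR 4.0.16 in R 4.3.3, with Benjamini-Hochberg adjustment over 10074 genes and a threshold of 0.05. SEs were obtained from the unshrunken coefficient and its F, and the procedure was tested on simulated data. Coordinates and exon lengths came from the Ensembl annotation of BDGP6 (11181 identifiers found directly and 213, with br, by symbol). Members and lists were chosen with earlier results of these data known. Named genes are the members, the 3 largest changes past the test in each direction of each list, and the 3 genes with the highest Pearson r of log2 CPM (prior count 2) for each member past the test. Actn, CG12912, Hnf4, Kr-h1, tai, ple, e, b and the genes like Eip78C were named after their values were seen. Alternatives were other scalings and filters, DESeq2 1.42.0, omission of the 20 most abundant genes or of single samples, and the replicate number as a block.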

Additional observations from a re-analysis of the deposited data

How the results depend on the processing

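Of the receptor and response genes, 1 was higher and 4 were lower. With total counts only, 3 were higher and 1 lower, because EcR, Eip74EF and Hr39 lost their calls and usp and Blimp-1 passed as higher; Eip75B was then at 0.036 in place of -0.81. Without control replicate 3, 2 were higher, with Blimp-1 added. Leaving out single samples gave 1 to 2 higher and 4 to 5 lower, and Eip78C ran from -7.86 to 1.33. DESeq2 1.42.0 gave Eip78C no adjusted p. The 6 pathway lists together held 12 higher and 15 lower genes of 84 tested, against 49 and 8 with total counts, and 7 to 17 and 8 to 21 with single samples left out. Over all 10074 genes, the calls went from 2393 higher and 2320 lower to 6189 and 695 with total counts. The counts of the response genes and of the lists thus moved in the same direction as those of all genes. Calls over all genes numbered 4713, and 3055 without tumour-bearing replicate 2. With single samples left out, 1675 to 2590 of all genes were higher and 1380 to 2548 lower. The difference in the log2 ratio of ftz-f1 to Blimp-1 ran from -0.25 to 1.05 over single samples left out. Total counts change only the scaling, and the cause of the other shifts was not tested. Depth limits Hr46 and Eip78C, which had 11 to 247 counts in 5 of the 6 samples.

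Both groups have replicate numbers 1 to 3. The deviations of same-numbered samples from their group means correlated at -0.05, 0.07 and 0.11, and those of differently numbered samples at -0.13 to 0.14. The numbers thus showed no sign of pairing, but so few samples cannot exclude it. With the replicate number as a block, again 1 response gene was higher and 4 were lower, Eip78C was at -0.42 and Hr46 at -2.80, 10 and 11 genes of the pathway lists were higher and lower, the calls of ImpE2, Chd64, bon, mor, ERR and Met were lost (adjusted p of 0.0662 to 0.101), and 3572 genes in all passed. The ratios differed by the same amounts as without the block (EcR to usp, -1.13), with a smallest possible exact p of 0.25.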
